A study of Mus musculus with 6 samples.

Results

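The genes described here encode the protein subunits of the cytosolic ribosome in the mouse mammary gland at the start of lactation. They were taken by symbol from the deposited table: Rpl or Rps followed by a number and at most 1 letter, together with Rplp0, Rplp1, Rplp2 and Rpsa, and without the ribosomal protein S6 kinases. This gave 81 of the 17739 gene symbols in the table, of which 49 belong to the large subunit and 32 to the small subunit. RNA came from mammary epithelial organoids, which are pieces of epithelium that collagenase and pronase release from the gland, in FVB mice on lactation day 1. The groups were 3 wild-type mice and 3 mice with a conditional knockout of Nmi, written Nmi-/- in the labels, with 1 library of total RNA per mouse. Nmi is an interferon-inducible protein that binds N-Myc and STAT factors. The labels state no treatment and no age, and they name neither the Cre line, nor its promoter, nor the exons removed. Replicate numbers are only names, so wild-type replicate 1 and knockout replicate 1 are unrelated mice.

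A cytosolic ribosome has a small subunit, which reads the messenger RNA, and a large subunit, which joins amino acids and carries the exit tunnel for the new protein. Each subunit is built on ribosomal RNA and takes up 1 copy of most of its proteins, and most of these proteins are made from mRNAs that begin with a run of pyrimidines, the terminal oligopyrimidine (TOP) start, through which mTORC1 signalling controls their translation. Secretory cells of the lactating gland make large amounts of milk protein on such ribosomes. Mammalian genomes also hold many processed pseudogenes of ribosomal protein genes, which are intron-less copies of their mRNAs.

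The labels and the cells were checked first. Nmi stood at 4.60, 2.82 and 2.32 FPKM in the wild-type libraries and at 0.188, 0.547 and 0.564 FPKM in the knockout libraries, where FPKM means fragments per kilobase of gene and scaled to the mapped total of the library. The groups did not overlap for Nmi, and its log2 fold change was -1.54 (SE 0.23; limma, adjusted p = 0.372 over 9767 genes). All 12 epithelial markers, among them Epcam and Krt8, were expressed, and their summed level ran from 1473 FPKM in knockout replicate 3 to 7399 FPKM in wild-type replicate 1. The 10 lymphocyte markers in the table summed to between 0.259 and 0.810 FPKM, and the 10 macrophage markers to between 11.5 and 26.8 FPKM. Sums were higher for the 8 fibroblast markers, between 23.9 and 61.8 FPKM, except where the ranges met. The 7 endothelial markers summed to between 48.4 and 102.7 FPKM. Adipocyte and erythroid markers are given further below. A list of 20 milk protein genes took from 48.0% to 76.7% of the FPKM sum of a library, lowest in wild-type replicate 1 and highest in knockout replicate 3. Gapdh, which nearly every cell uses, was listed between 0 and 0.0769 FPKM, so a value near 0 was read only as a listed value and not as absence of the mRNA.

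The ribosomal protein mRNAs covered a wide range of listed levels. Their mean FPKM over the 6 libraries ran from 0.00704 for Rpl39l to 349 for Rpl41, with a median of 23.8 FPKM for all 81 genes, 19.9 FPKM for the large subunit and 32.1 FPKM for the small subunit. A mean under 10 FPKM was found for 29 genes, 19 of the large and 10 of the small subunit. At the other end, 8 genes held 44.8% of the summed FPKM of the 81 genes, among them Rpl41, Rpl8, Rplp0, Rpl4, Rps26, Rpl32 and Rplp1. FPKM is already divided by gene length, so these are levels per length.

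Among the most abundant large subunit mRNAs was that of Rpl41, which encodes the shortest and one of the most basic ribosomal proteins. Rpl41 stood at 444, 348 and 274 FPKM in the wild-type libraries and at 403, 322 and 303 FPKM in the knockout libraries, each time given in the order of replicates 1 to 3. The knockout values lay within the wild-type range. Its whole coding sequence without the stop codon is 75 bases long, within a longest annotated transcript of 582 bases, and is shown because it belongs to the most abundant mRNA of the set.
Rpl41: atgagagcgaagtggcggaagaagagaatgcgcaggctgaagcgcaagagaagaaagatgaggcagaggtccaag
The Rpl41 gene lies on the minus strand at chr10:128548114-128549305 (GRCm38).

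Next in the large subunit came Rpl8, a protein close to the peptidyl transferase centre, with 372, 286 and 249 FPKM in the wild-type libraries and 300.2, 246 and 195 FPKM in the knockout libraries. Rplp0, which anchors the stalk that recruits elongation factors, had 362, 291 and 239 FPKM in wild type and 324, 267 and 145 FPKM in the knockout. Rpl4, whose long loop lines the exit tunnel, had 325, 259 and 236 FPKM in wild type and 264, 234 and 166 FPKM in the knockout. In each of these the highest value was in wild-type replicate 1, the lowest was in knockout replicate 3, and the groups overlapped. The mRNAs of the other stalk proteins, which sit in the stalk as dimers, differed in listed level. The means were 175 FPKM for Rplp1 and 10.2 FPKM for Rplp2. Both genes have near-identical copies of their coding sequence, described below, at up to 98.5% identity for Rplp1 and 99.4% for Rplp2. The difference is therefore uncertain. Rpl5 and Rpl11, which carry the 5S ribosomal RNA into the large subunit and bind Mdm2 when free, had means of 19.9 and 23.8 FPKM. Rpl10, which joins the large subunit late in its assembly, had a mean of 55.9 FPKM.

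Among the most abundant mRNAs of the small subunit was that of Rps26, which lies at the exit of the mRNA channel, with 280, 217 and 211 FPKM in wild type and 225, 197 and 129 FPKM in the knockout. It was highest in wild-type replicate 1 and lowest in knockout replicate 3, with overlapping groups. Rps9 and Rps24 were lower, with means of 153 and 131 FPKM. Rpsa, also known as the laminin receptor precursor, had a mean of 85.6 FPKM, and Rps6, the substrate of the S6 kinases, one of 58.1 FPKM. Rps27a, which is made as a fusion with ubiquitin, had a mean of 3.16 FPKM.

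**Figure D1:**
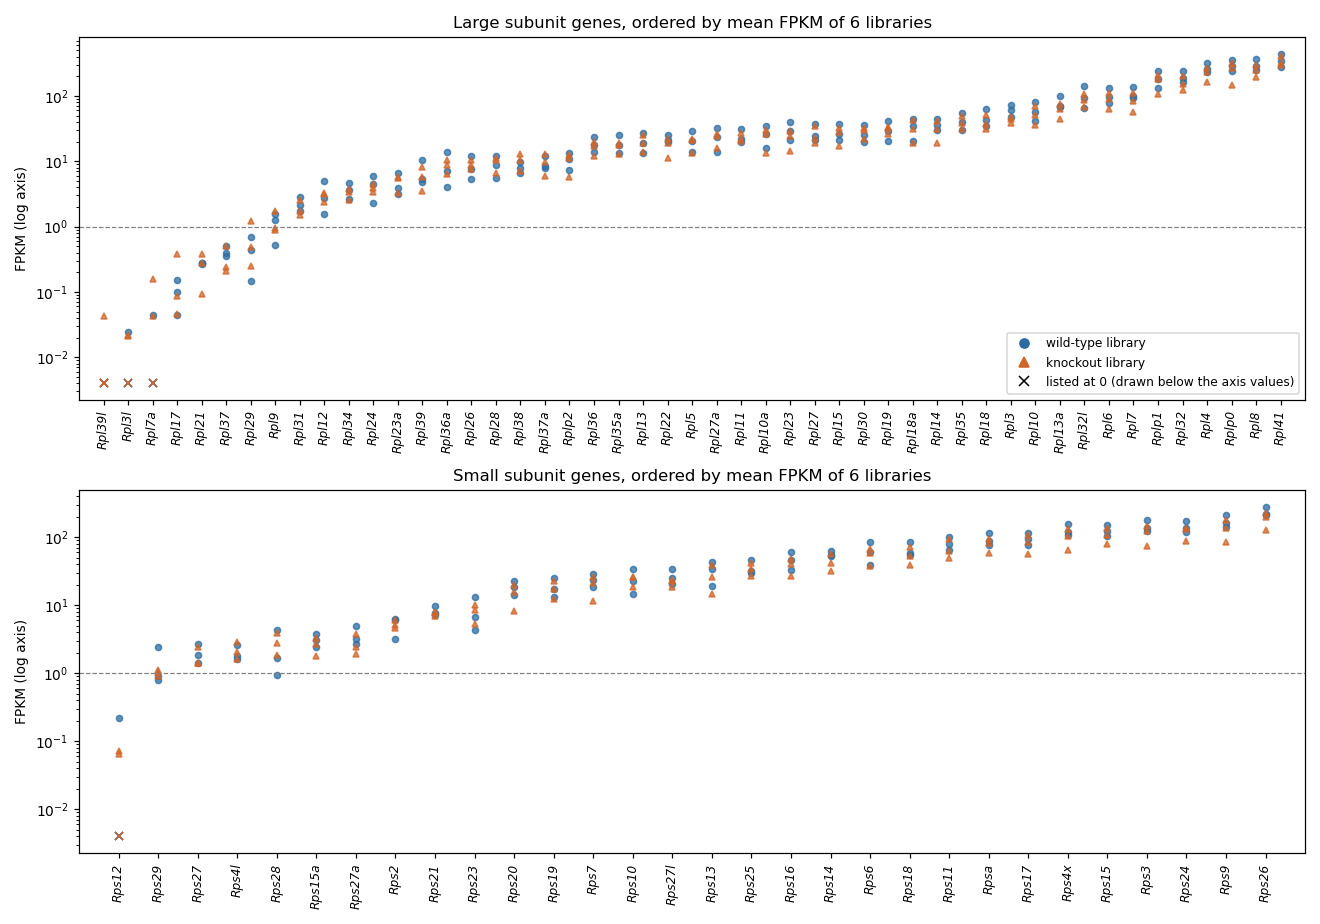
FPKM of 79 of the 81 ribosomal protein genes (log axis) in the 3 wild-type (blue circles) and 3 knockout (orange triangles) libraries, ordered by mean within each subunit; crosses mark libraries where a gene was listed at 0, and the dashed line is 1 FPKM. Levels run from a mean of 0.00704 FPKM for Rpl39l to 349 FPKM for Rpl41, and the genotypes overlap for each tested gene shown except Rpl3.

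At the low end, 8 genes did not reach 1 FPKM in 3 libraries and were left out of the tests: Rpl17, Rpl21, Rpl29, Rpl37, Rpl39l, Rpl3l, Rpl7a and Rps12. Rpl7a and Rps12 are constituents of cytosolic ribosomes in general. Rpl7a was nevertheless listed at 0.0444, 0 and 0 FPKM in the wild-type libraries and at 0.0425, 0.157 and 0 FPKM in the knockout libraries. Rps12 was listed at 0.222, 0 and 0 FPKM in wild type and at 0.0708, 0.0657 and 0 FPKM in the knockout. Rpl17 lay between 0.0441 and 0.379 FPKM. Just above the limit stood Rps29, a small zinc-binding protein, with 2.46, 0.907 and 0.789 FPKM in wild type and 1.04, 1.13 and 0.900 FPKM in the knockout.

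Several of the low genes have near-identical copies elsewhere in the genome. Copies were counted with BLAST as annotated transcripts of other genes that cover 50% or more of the coding sequence with an identity of 95% or more, a count added after the levels had been seen. Of the 79 genes with an annotated coding sequence, 74 had at least 1 such copy, and 564 of the 582 copies were annotated as pseudogenes. A copy identical over the full coding length existed for 19 genes. The first 60 coding bases of 3 low genes are printed with those of 1 copy each, and no base differs between gene and copy in these stretches.
Rpl7a: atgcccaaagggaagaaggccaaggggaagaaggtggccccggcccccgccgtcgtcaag
Gm8226: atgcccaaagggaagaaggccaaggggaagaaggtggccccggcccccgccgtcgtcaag
Rps12: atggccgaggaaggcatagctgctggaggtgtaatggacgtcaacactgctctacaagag
Rps12-ps3: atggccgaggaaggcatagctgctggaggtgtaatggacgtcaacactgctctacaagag
Rpl37: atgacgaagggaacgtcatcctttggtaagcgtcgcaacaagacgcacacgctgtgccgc
Rpl37rt: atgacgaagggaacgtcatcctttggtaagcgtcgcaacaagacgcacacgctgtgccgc
Over the aligned coding sequence the identity was 99.7% for Rpl7a and the processed pseudogene Gm8226, 100% for Rps12 and Rps12-ps3, which the annotation calls protein coding, and 99.7% for Rpl37 and the transcribed processed pseudogene Rpl37rt. On GRCm38 these genes lie at chr2:26910764-26913318 (Rpl7a), chr9:84423984-84424781 (Gm8226), chr10:23785183-23787275 (Rps12), chr19:59322290-59322783 (Rps12-ps3), chr15:5116645-5119140 (Rpl37) and chr5:115102923-115110268 (Rpl37rt).

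The listed level was lower where there were more copies. Rpl7a had 35 copies, Rpl21 had 58, Rpl29 had 29, Rpl17 had 23 and Rps12 had 22, while Rpl37 had 1. The median level was 37.98 FPKM for the 28 genes with 0 to 3 copies, 20.8 FPKM for the 34 genes with 4 to 9 copies and 5.22 FPKM for the 17 genes with 10 or more. By identity, the 57 genes whose best copy reached 99% had a median of 19.7 FPKM, and 24 of them lay under 10 FPKM. The 17 genes whose best copy lay from 95% to under 99% had a median of 97.6 FPKM, with 2 under 10 FPKM. Only 5 genes had no copy, among them Rpl8, at 274 FPKM, and the paralogs Rps27l, Rpl3l and Rpl39l. Across the 79 genes, level and number of copies had a Spearman rho of -0.323 and a Pearson r of -0.433 on mean levels taken from the same 6 libraries. The count did not follow the level in every gene, since Rpl37 had 1 copy and a mean of 0.370 FPKM, while Rpl41 had 4 copies and a mean of 349 FPKM. Counted on the longest whole transcript instead, the pattern was not seen, with medians of 21.3 FPKM for 36 genes without a copy and 24.5 FPKM for 43 genes with one.

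**Figure D2:**
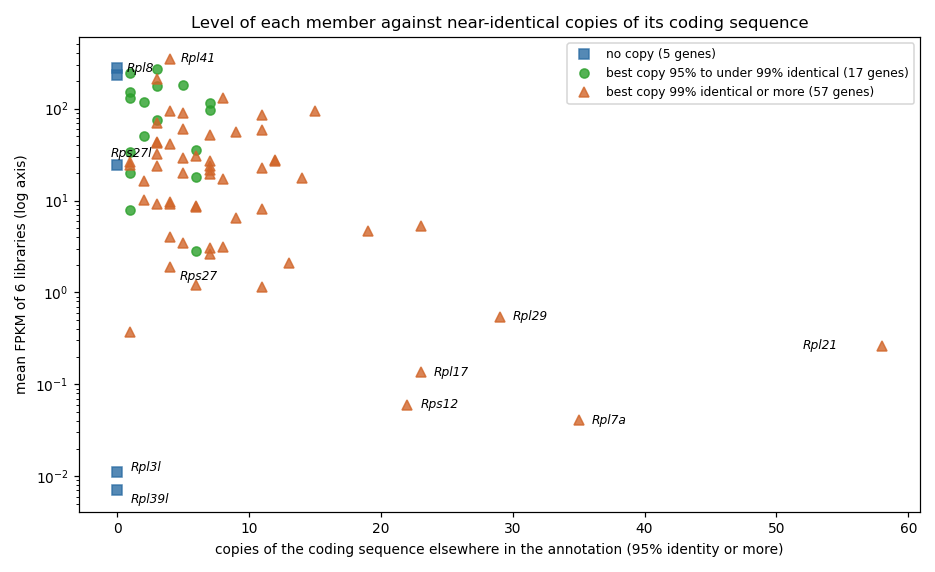
Mean FPKM of 79 ribosomal protein genes (log axis) against the number of copies of the coding sequence elsewhere in the annotation, with the identity of the best copy shown by symbol. The genes with 10 or more copies have a median of 5.22 FPKM against 37.98 FPKM for those with 0 to 3.

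Most copies have no row of their own in the table. Leaving aside copies that the symbol rule itself took, 15 do, for 14 of the genes. In 9 cases the copy was listed above the gene it matches, which was the case for 8 genes. Rpl37 was listed at 0.370 FPKM on average and Rpl37rt at 126 FPKM, with 168, 128 and 107 FPKM in wild type and 146, 129 and 81.04 FPKM in the knockout. Rpl31 had a mean of 2.10 FPKM and its processed pseudogene Rpl31-ps12, at chr16:16819749-16820123 and 98.9% identical, one of 66.0 FPKM. Rpl14 had a mean of 33.7 FPKM and Rpl14-ps1, at chr7:45324965-45325617 and 98.9% identical, one of 257 FPKM. For Rpl34 the values were 3.46 FPKM for the gene and 30.6 FPKM for Rpl34-ps1, and for Rpl26 they were 8.72 FPKM for the gene and 44.7 FPKM for Gm15772. Rps15a, at 2.84 FPKM, had the copies Rps15a-ps4 and Rps15a-ps6 at 9.66 and 11.3 FPKM. Rpl21 stood at 0.263 FPKM, while BC004004, a gene on chromosome 17 with a copy of that coding sequence in its transcripts, stood at 8.95 FPKM. A copy at such identity can share reads with the gene, so how the authors' program divided the reads between them cannot be told apart from the level of either. Levels and fold changes of genes with such copies are therefore uncertain. Together these copies summed to between 13.8% and 14.8% of the ribosomal protein sum in the 6 libraries, with the knockout values inside the wild-type range.

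Some paralogs of ribosomal proteins differ clearly in sequence from the gene they resemble, although that gene can have near-identical copies of its own. Rps27 and Rps27l encode variants of 1 small subunit protein, and Rps27l is known as a p53 target. Rps27l was listed at 34.6, 24.9 and 20.2 FPKM in wild type and at 23.1, 23.5 and 18.8 FPKM in the knockout, against 2.73, 1.85 and 1.43 FPKM and 2.42, 1.42 and 1.40 FPKM for Rps27. Rps27l was thus listed above Rps27 in each of the 6 libraries. Rps27 has 4 copies, 1 of them identical, and Rps27l has none, so the level of Rps27 and its distance from Rps27l are uncertain. Rpl39l, a paralog of Rpl39 known from testis, was listed at 0 in 5 libraries and at 0.0422 FPKM in knockout replicate 2, while Rpl39 had a mean of 6.38 FPKM. Rpl39 has 9 copies at up to 99.3% identity, and Rpl39l has none. The first 90 coding bases of both pairs follow, with capitals in the paralog at bases that differ from the gene above it.
Rps27: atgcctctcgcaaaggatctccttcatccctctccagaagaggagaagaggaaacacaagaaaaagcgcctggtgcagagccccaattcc
Rps27l: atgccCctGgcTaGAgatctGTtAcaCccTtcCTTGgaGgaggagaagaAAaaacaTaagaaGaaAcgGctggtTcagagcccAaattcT
Rpl39: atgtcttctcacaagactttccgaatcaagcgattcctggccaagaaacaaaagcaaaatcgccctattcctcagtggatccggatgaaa
Rpl39l: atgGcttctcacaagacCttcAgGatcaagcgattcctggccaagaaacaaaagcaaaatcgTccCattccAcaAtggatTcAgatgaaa
In these stretches 24 bases differ between Rps27 and Rps27l and 10 between Rpl39 and Rpl39l. Over the whole coding sequences the identity was 76.2% for the first pair (252 bases) and 85.0% for the second (153 bases). The genes lie on GRCm38 at chr3:90212522-90213651 (Rps27), chr9:66946086-66949516 (Rps27l), chrX:37082520-37085402 (Rpl39) and chr16:10170226-10174911 (Rpl39l).

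For the other paralogs, Rpl3l, known from skeletal and heart muscle, was listed at 0 in 3 libraries and at 0.0240, 0.0213 and 0.0220 FPKM in the others, while Rpl3 had a mean of 52.0 FPKM. Rpl36al, which lies outside the symbol rule, stood at 120 FPKM and Rpl36a at 8.44 FPKM. Rpl36a has 6 copies, 1 of them identical over the full coding length, so its level and its distance from Rpl36al are uncertain. Rpl22l1 stood at 4.13 FPKM and Rpl22 at 19.8 FPKM, and Rpl7l1 at 8.25 FPKM and Rpl7 at 97.6 FPKM. The rule also took Rpl32l, at 93.4 FPKM, and Rps4l, at 2.09 FPKM, which the annotation lists as processed pseudogenes. Rpl32 stood at 179 FPKM and Rps4x at 114 FPKM. Counted on its transcript, Rpl32l has Rpl32 as a copy at 95% identity or more, so the levels of Rpl32l and Rpl32 are uncertain. Ribosomal proteins whose symbols the rule does not reach were among the abundant mRNAs as well. Gnb2l1, the older symbol of Rack1, had a mean of 281 FPKM, Rps3a1 one of 144 FPKM and Fau one of 14.9 FPKM.

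The TOP start could be looked for in RefSeq windows around annotated starts (GRCm38.p6), which were found for 60 of the 81 genes. The motif was a C at the annotated start followed by at least 4 bases that are each C or T. It was searched only on the strand that carries the sequence of the mRNA. It was present at the start in 14 of 60 ribosomal protein genes, or 23.3%, with 8 of 37 in the large and 6 of 23 in the small subunit. The large subunit count includes Rpl32l, which the annotation lists as a processed pseudogene. Among all 27025 genes with a window the motif was found in 813, or 3.0%, and among 68 mitochondrial ribosomal protein genes in 0. Allowing the C to lie within 5 bases of the start, it was found in 48.3% of the ribosomal protein genes, in 17 of the 68 mitochondrial ones and in 21.2% of all genes. Annotated starts can lie some bases away from the start used in a tissue, so a window without the motif says only that these letters were not at that position. The windows of 5 genes are shown, with 20 bases on each side of the start and the run of pyrimidines in capitals.
Rpl15: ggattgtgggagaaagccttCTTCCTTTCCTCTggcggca
Rpl35: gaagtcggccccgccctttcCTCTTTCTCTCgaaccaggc
Rps10: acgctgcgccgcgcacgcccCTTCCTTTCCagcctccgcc
Rps6: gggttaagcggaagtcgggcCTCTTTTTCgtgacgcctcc
Rpl38: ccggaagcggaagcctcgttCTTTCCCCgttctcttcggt
They lie at chr14:18270967-18271006 (Rpl15, minus strand), chr2:39005112-39005151 (Rpl35, minus strand), chr17:27635225-27635264 (Rps10, minus strand), chr4:86857348-86857387 (Rps6, minus strand) and chr11:114668560-114668599 (Rpl38, plus strand). The mean levels of these 5 genes were 26.9, 41.1, 23.5, 58.1 and 9.14 FPKM in that order. The genes are spread over 19 chromosomes, and 29 of them hold snoRNA genes inside their borders, 56 in all, which is a known trait of TOP genes.

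Across mice, the ribosomal protein mRNAs moved together from library to library. The median Pearson r between 2 of the 73 tested genes over the 6 libraries was 0.857, on values that share the same library totals. No such r was computed for all tested genes, of which 63.5% were highest in wild-type replicate 1 and 65.8% lowest in knockout replicate 3. Whether the common movement is particular to this set was not tested. Their share of the FPKM sum was 1.56%, 1.05% and 0.780% in the wild-type mice and 1.07%, 0.922% and 0.565% in the knockout mice. The genotype means were 1.13% ± 0.394 (SD, n = 3) for wild type and 0.854% ± 0.262 (SD, n = 3) for the knockout, so the difference was smaller than the spread within wild type. The share was highest where the milk protein share was lowest (48.0%, wild-type replicate 1) and lowest where it was highest (76.7%, knockout replicate 3). Summed adipocyte markers, 5 of 8 of which stayed under 1 FPKM, ran from 165.5 FPKM in knockout replicate 3 to 683 FPKM in wild-type replicate 1, and epithelial markers were at their extremes in the same libraries. Erythroid markers had the opposite extremes, with a sum of 8.19 FPKM at their lowest in wild-type replicate 1 and of 41.05 FPKM at their highest in knockout replicate 3, and macrophage markers were also highest in knockout replicate 3. The part of these mRNAs and of milk mRNA in this order was not tested. In a bulk sample, fewer cells of a type and less RNA per cell cannot be told apart.

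Dividing by the FPKM sum outside the milk list instead of the whole sum brought the libraries closer. Ribosomal protein genes then took 3.00%, 2.71% and 2.68% of the rest in wild type and 3.26%, 2.54% and 2.43% in the knockout. The means were 2.80% ± 0.174 (SD, n = 3) and 2.74% ± 0.455 (SD, n = 3), with the wild-type values inside the knockout range. The large subunit took 1.59% ± 0.115 in wild type and 1.598% ± 0.239 in the knockout, and the small subunit 1.21% ± 0.0617 and 1.14% ± 0.219 (SD, n = 3 each). The ratio of the large to the small subunit sum was 1.344, 1.332 and 1.269 in wild type and 1.347, 1.372 and 1.493 in the knockout. The knockout ratios lay above all wild-type ratios, but the nearest libraries were only 1.344 and 1.347, and knockout replicate 3 stood apart from the rest. Mitochondrial ribosomal protein genes, which serve the separate ribosome of the mitochondrion, took from 0.402% to 0.446% of the rest in the 6 libraries.

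**Figure D3:**
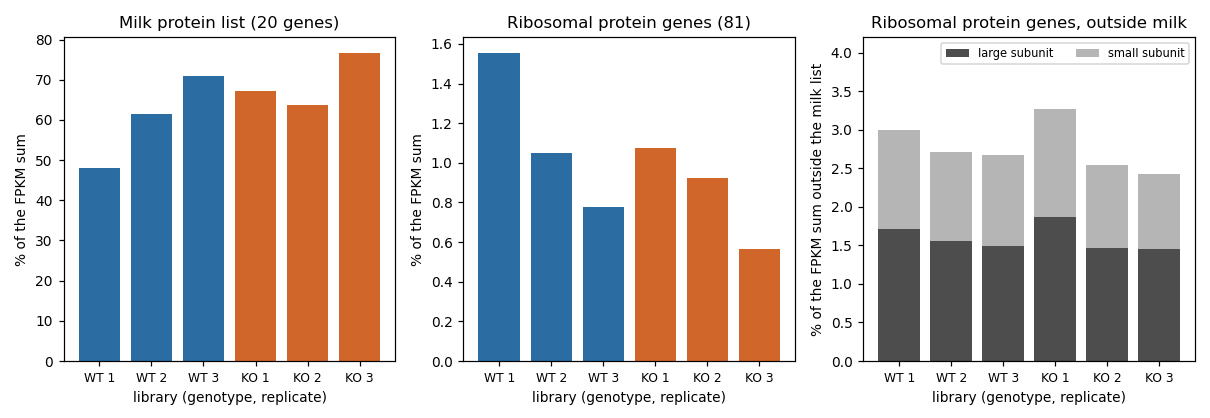
Share of the FPKM sum taken by 20 milk protein genes (left) and by the 81 ribosomal protein genes (middle), and the share of the sum outside the milk list taken by ribosomal protein genes, split by subunit (right), in each wild-type (WT) and knockout (KO) library. The ribosomal protein share runs from 0.565% to 1.56% of the whole and from 2.43% to 3.26% outside the milk list.

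For most of the genes the highest and the lowest value fell in the same libraries. Of the 73 tested genes, 69 were highest in wild-type replicate 1, where 63.5% of all tested genes were highest, and 50 were lowest in knockout replicate 3, where 65.8% of all tested genes were lowest. In wild-type replicate 1 the median ribosomal protein gene lay 0.48 above its own mean on the log2(FPKM + 1) scale, against 0.33 for all tested genes. In knockout replicate 3 it lay at -0.48, against -0.36 for all tested genes. Knockout replicate 1 differed from this order: the median ribosomal protein gene lay at 0.24 and the median of all genes at -0.06. On values scaled to the rest of the FPKM sum, 49 of 73 ribosomal protein genes were highest in knockout replicate 1, where 9.46% of all tested genes were highest, and 30 of 73 were lowest in knockout replicate 3, against 36.6% of all tested genes. The other 2 knockout mice did not share this, with medians of -0.09 and -0.13 on the scaled values for knockout replicates 2 and 3. Epithelial markers in knockout replicate 1 summed to 3385 FPKM, within the range of the other libraries, and their part in this was not tested.

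Genes also differed in how much they varied between libraries. The SD of log2(FPKM + 1) over the 6 libraries had a median of 0.38 for the tested ribosomal protein genes and 0.31 for all tested genes. Among the 73 tested genes it was highest for Rps13, Rps28 and Rpl36a, with 0.58, 0.56 and 0.55, and lowest for Rps21, Rpl31 and Rps4l, with 0.16, 0.24 and 0.24. Rpl31 and Rps4l had means of only 2.10 and 2.09 FPKM, where the 1 added to FPKM narrows the spread. Rps28, a small protein at the mRNA exit, stood at 4.34, 1.68 and 0.941 FPKM in wild type and at 2.80, 1.87 and 3.97 FPKM in the knockout. It was an exception to the common pattern, with a high value in knockout replicate 3. Rps21 stood at 9.80, 7.64 and 7.08 FPKM in wild type and at 7.69, 8.09 and 6.91 FPKM in the knockout, a narrow range with overlapping groups.

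**Figure D4:**
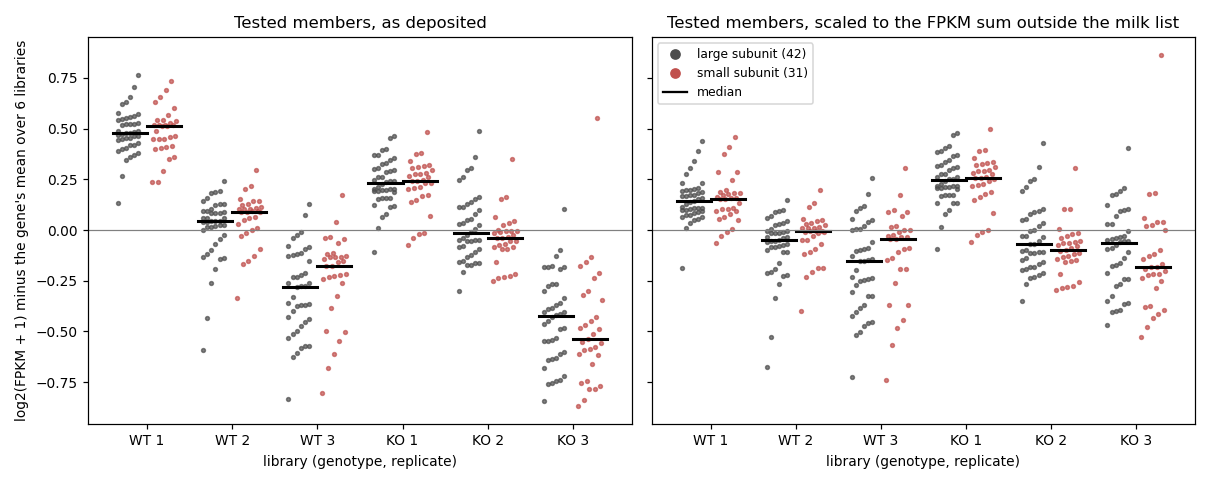
log2(FPKM + 1) of each tested ribosomal protein gene minus its own mean over the 6 libraries, for the large (grey, 42 genes) and small (red, 31 genes) subunit, as deposited (left) and scaled to the FPKM sum without milk genes (right); bars are medians. As deposited, the genes are highest in wild-type replicate 1 (median 0.48) and lowest in knockout replicate 3 (median -0.48), and on scaled values knockout replicate 1 stands highest (median 0.25).

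The comparison of genotypes asks what the loss of Nmi changes in the mRNAs of mammary epithelium on lactation day 1. No ribosomal protein gene passed the test. Of the 73 tested, 0 were called at an adjusted p under 0.05 (limma, Benjamini-Hochberg over all 9767 genes), where 0.0% of all genes were called, and 0 had an unadjusted p under 0.05, against 1.33% of all genes. The log2 fold change, knockout minus wild type, was below 0 for 59 of 73 genes, 33 of 42 in the large and 26 of 31 in the small subunit, beside 81.7% of all genes. Its median was -0.13 for the large subunit, -0.25 for the small subunit and -0.21 for all genes tested. The subset planned beforehand held the genes without a near-identical copy of the longest coding transcript. There the median was -0.12 in the large subunit (18 genes) and -0.25 in the small subunit (13 genes). A subset that was not planned held the genes whose coding sequence has no copy at 99% identity or more. There it was -0.31 in the large subunit (8 genes) and -0.27 in the small subunit (12 genes). A value above the median of all genes was found for 30 of 42 large and 11 of 31 small subunit genes. The 95% interval of a ribosomal protein gene reached 0.69 to either side of its fold change in the median, so changes up to that size could not be told from none in these 6 mice.

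The median of the large subunit depended on single libraries. It was 0.09 without wild-type replicate 1, when the median of all genes was -0.10, and it ranged from -0.33 to 0.09 over the fits that each left out 1 library. The small subunit median ranged from -0.42 to -0.04 over the same fits. Without both wild-type replicate 1 and knockout replicate 3, the medians were 0.29 and 0.13, and 5 of 73 genes lay below 0, beside 42.1% of all genes. Scaling to the sum outside the milk list moved the median of all genes from -0.21 to -0.04. The subunit medians then stood at 0.06 and -0.04, and 34 of 73 ribosomal protein genes lay below 0 beside 56.8% of all genes.

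Within the large subunit the smallest p belonged to Rpl3, a protein that reaches into the peptidyl transferase centre. Rpl3 (chr15:80077791-80091868) stood at 73.5, 60.4 and 47.9 FPKM in wild type and at 47.1, 44.0 and 39.1 FPKM in the knockout. Its groups did not overlap, by a margin of under 1 FPKM, and it was the only ribosomal protein gene of which this was true. Among all genes, 3.83% lay apart with the knockout lower and 0.778% with the knockout higher, 4.61% in all. The log2 fold change was -0.45 (SE 0.27, 95% interval -1.06 to 0.15), with an adjusted p of 0.768 in limma. Rpl3 has 7 pseudogene copies at up to 99.8% identity, none with a row in the table. The count of genes without overlap varied with the library left out. Leaving out wild-type replicate 1 gave 2 such genes of 73, beside 6.56% of all genes, and leaving out wild-type replicate 3 gave 4, beside 28.3%. Without knockout replicate 1 there were 18, all lower in the knockout, beside 11.8% of all genes. Without knockout replicate 2 there was 1, beside 32.2%, and without knockout replicate 3 there were 2, beside 6.79%.

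The next in the large subunit were Rpl23 and Rpl7. Rpl23, which binds Mdm2 when free, stood at 40.0, 28.8 and 21.3 FPKM in wild type and at 28.6, 24.1 and 14.4 FPKM in the knockout, with a log2 fold change of -0.42 (SE 0.33). Rpl7 stood at 138, 101 and 92.4 FPKM in wild type and at 113, 84.7 and 56.0 FPKM in the knockout, with a log2 fold change of -0.42 (SE 0.33). For both the groups overlapped, and without both wild-type replicate 1 and knockout replicate 3 their fold changes were 0.08 and 0.02. Rpl13a, which also takes part in interferon-gamma-dependent silencing of mRNAs, had a log2 fold change of -0.38 (SE 0.30). Those of Rpl22 and Rpl4, which complete the 6 large subunit genes with the smallest p, were -0.37 (SE 0.29) and -0.32 (SE 0.31). At the other end Rpl38, known for its part in the translation of Hox mRNAs, stood at 9.87, 7.99 and 6.67 FPKM in wild type and at 10.3, 12.9 and 7.04 FPKM in the knockout. Its log2 fold change was 0.25 (SE 0.27), the highest in the large subunit. Leaving out knockout replicate 2 or 3 made it 0.07 or 0.47, and leaving out wild-type replicate 3 or 1 made it 0.13 or 0.38. Rpl38 has 3 pseudogene copies, 1 of them identical over the full coding length, so its fold change is uncertain.

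In the small subunit Rps14, a protein of the subunit's platform, had the smallest p. It stood at 62.6, 52.4 and 54.9 FPKM in wild type and at 56.5, 41.2 and 31.4 FPKM in the knockout, so that only knockout replicate 1 overlapped wild type. Its log2 fold change was -0.42 (SE 0.29), with an adjusted p of 0.768 in limma. Rps3, which lines the entry of the mRNA channel, stood at 181, 136 and 123 FPKM in wild type and at 145, 121 and 74.4 FPKM in the knockout, with a log2 fold change of -0.40 (SE 0.33). The values of Rps26, given above, made a log2 fold change of -0.39 (SE 0.32). The other small subunit genes among the 6 with the smallest p were Rps4x with -0.38 (SE 0.33), Rps20 with -0.38 (SE 0.33) and Rps27a with -0.32 (SE 0.26). The highest fold change of the small subunit was that of Rps28, at 0.32 (SE 0.35). It rested on single libraries, since leaving out wild-type replicate 3 or 1 made it 0.00097 or 0.73, and leaving out knockout replicate 3 or 2 made it 0.13 or 0.52. Rps28 also has 7 pseudogene copies, 1 of them identical over the full coding length.

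**Figure D5:**
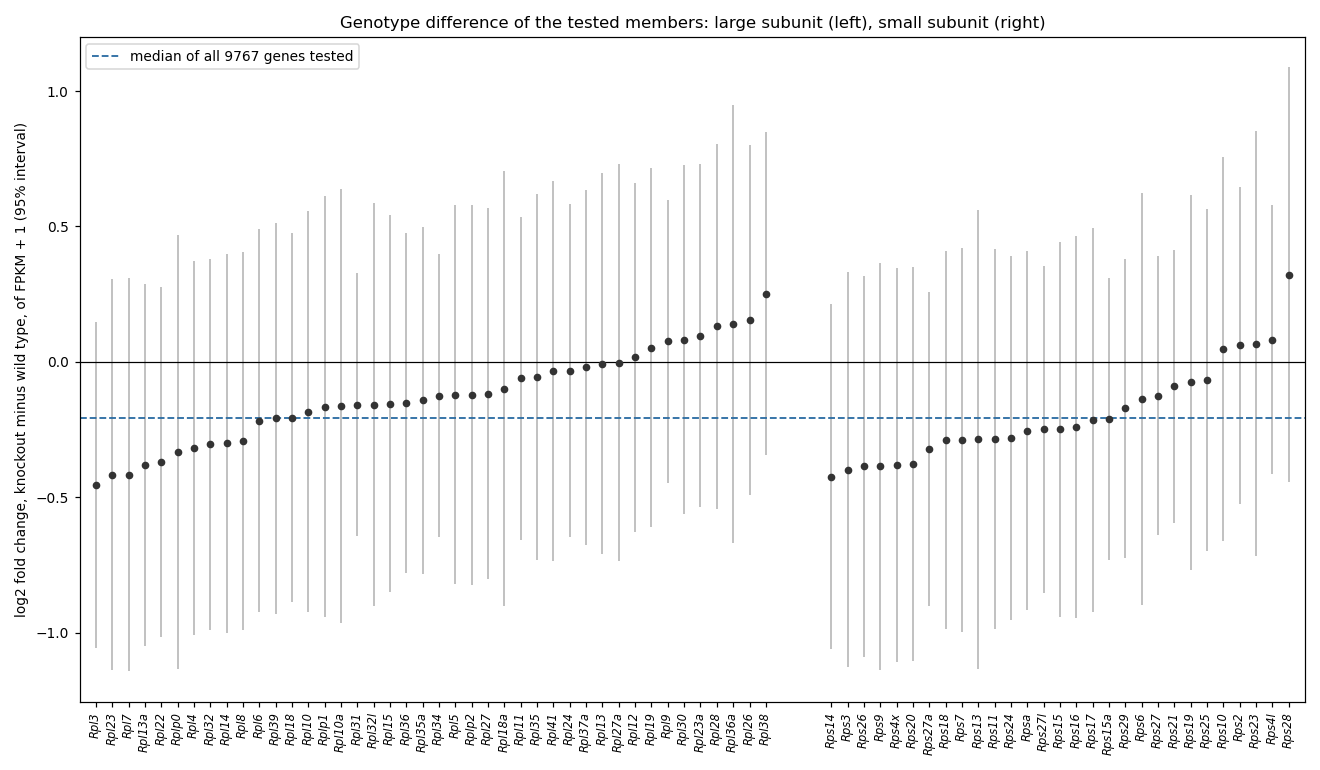
log2 fold change (knockout minus wild type, of FPKM + 1) of 71 of the 73 tested ribosomal protein genes with its 95% interval, large subunit on the left and small on the right; the dashed line is the median of all 9767 genes tested (-0.21). The interval of each gene shown contains 0, and the points run from -0.45 for Rpl3 to 0.32 for Rps28.

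Within the set, the fold change went with the level. More abundant ribosomal protein mRNAs had lower fold changes, with a Pearson r of -0.562 and a Spearman rho of -0.594 over 73 genes, and r was -0.513 with a pseudocount of 0.1. Across all 9767 genes r was -0.116. The fold change also had a Spearman rho of 0.39 with the number of coding copies over 71 genes. Level and fold change were taken from the same 6 libraries, the copies were counted in the annotation for the same genes, and the parts of level and copies were not separated.

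On values scaled to the sum outside the milk list, 4 genes had groups that did not overlap, beside 6.55% of all genes. Rpl3 was lower in the knockout, as were 4.43% of all genes, and Rpl30, Rpl38 and Rps4l were higher, as were 2.12% of all genes. For Rpl30 the highest wild-type value was 28.5 and the lowest knockout value 29.2. For the pseudogene Rps4l these values were 2.057 and 2.07, so both margins were narrow. Rpl30 also has a copy with a row, Gm12191, at 99.7% identity. As deposited its mean was 32.5 FPKM against 27.6 FPKM for Rpl30, so the fold change of Rpl30 is uncertain. Scaled, Rpl38 stood between 7.41 and 7.79 in wild type and between 9.24 and 12.5 in the knockout, with a log2 fold change of 0.45 and an adjusted p of 0.870 in limma. It was the only ribosomal protein gene with an unadjusted p under 0.05 on that scale, beside 1.78% of all genes.

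Genes that build and serve the ribosome were set beside the proteins themselves, from lists chosen with earlier results of these data known. None of the listed genes was called. Some genes stand in several lists, such as Eef1a1 and Eef2 (elongation and other TOP), Eif4b (initiation and other TOP) and Eif6 (initiation and biogenesis). The counts of the lists are therefore not separate from each other. Of 78 tested ribosome biogenesis genes, 76 had a fold change below 0, with a median of -0.31, and of 36 initiation factors 35 did, with a median of -0.32. Among all tested genes 81.7% lay below 0. Of 10 elongation and termination factors 10 lay below 0 (median -0.23), as did 22 of 22 other TOP mRNAs (median -0.32) and 23 of 25 genes of mTORC1, MYC and ribosomal protein regulation (median -0.22). Of 76 mitochondrial ribosomal protein genes 66 lay below 0, with a median of -0.17. These medians stand beside -0.21 for all genes and -0.16 for the 73 ribosomal protein genes. On values scaled to the sum outside milk, where 43.2% of all genes lay above 0, the counts above 0 were 18 of 78 for biogenesis, 9 of 36 for initiation, 5 of 10 for elongation and termination, 3 of 22 for the other TOP mRNAs, 12 of 25 for the regulators and 39 of 76 for the mitochondrial ribosomal proteins.

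Utp3, a component of the small subunit processome, had the only unadjusted p under 0.05 in these lists. Utp3 stood at 24.2, 17.0 and 15.8 FPKM in wild type and at 12.8, 15.3 and 7.45 FPKM in the knockout, without overlap, and its log2 fold change was -0.67 (SE 0.30; limma, adjusted p = 0.768). Without both wild-type replicate 1 and knockout replicate 3 the fold change of Utp3 was -0.21. Eif6, which keeps free large subunits from joining, stood at 68.4, 38.8 and 27.3 FPKM in wild type and at 26.6, 36.9 and 15.4 FPKM in the knockout, with a log2 fold change of -0.73 (SE 0.39). Its high value in wild-type replicate 1 weighed on this, since the fold change was -0.38 without that library. Nip7, an assembly factor of the large subunit, stood at 3.65, 2.20 and 2.31 FPKM in wild type and at 1.83, 2.05 and 1.07 FPKM in the knockout, without overlap. Rpl7l1, a paralog of Rpl7, had 11.3, 9.94 and 8.12 FPKM in wild type and 7.74, 7.99 and 4.36 FPKM in the knockout, without overlap, with a log2 fold change of -0.52 (SE 0.27; limma adjusted p = 0.768). Without both wild-type replicate 1 and knockout replicate 3 that of Rpl7l1 was -0.17. Of 78 tested ribosome biogenesis genes, 4 lay apart with the knockout lower, beside 3.83% of all genes. On values scaled to the sum outside milk 6 of 78 did, beside 4.43%.

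From the list of regulators, 3 genes are given as examples, the 2 with the smallest p and Myc. Eif4ebp1, the translation repressor that mTORC1 switches off, stood at 137, 77.0 and 61.6 FPKM in wild type and at 57.4, 62.3 and 39.1 FPKM in the knockout. Maf1, a repressor of RNA polymerase III, stood at 21.7, 13.1 and 11.4 FPKM in wild type and at 12.8, 11.3 and 5.88 FPKM in the knockout. Myc, which drives transcription of ribosome genes, stood at 58.7, 44.0 and 27.0 FPKM in wild type and at 25.3, 49.0 and 18.8 FPKM in the knockout. In these 3 the highest value was in wild-type replicate 1 and the lowest in knockout replicate 3, as for 63.5% and 65.8% of all tested genes, and the groups overlapped. Snhg1, a TOP transcript that hosts snoRNAs, stood at 33.9, 23.0 and 20.5 FPKM in wild type and at 18.7, 17.9 and 17.6 FPKM in the knockout, without overlap. Of the 22 other TOP mRNAs it was the only 1 without overlap, beside 4.61% of all genes. On values scaled to the sum outside milk its groups overlapped. Eef1a1, the most abundant of the elongation factors named here, ranged from 655 FPKM in knockout replicate 3 to 1515 FPKM in wild-type replicate 1.

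The other genes with the smallest p of their lists also had fold changes below 0 and were not called. Mrpl49 of the mitochondrial large subunit stood at 5.99, 5.07 and 5.38 FPKM in wild type and at 4.07, 3.95 and 3.14 FPKM in the knockout, and its groups did not overlap. Of 76 mitochondrial ribosomal protein genes, 12 lay apart with the knockout lower, beside 3.83% of all genes. On values scaled to the sum outside milk, 6 lay apart lower and 1 higher, beside 4.43% and 2.12% of all genes. Rps19bp1, a nucleolar protein that binds Rps19, stood at 12.2, 10.9 and 9.10 FPKM in wild type and at 7.999, 7.989 and 6.09 FPKM in the knockout, also without overlap. In its list 2 of 7 tested genes lay apart, the other being Rpl7l1. For Mrps31, Eif3c, Etf1, Eef1b2 and Nap1l1 the groups overlapped. Eif3c, a subunit of the initiation factor that binds the small subunit, had a wild-type mean of 70.1 ± 19.6 FPKM and a knockout mean of 48.6 ± 9.57 FPKM (SD over 3 mice each). Etf1, the release factor, had means of 39.2 ± 5.71 and 29.9 ± 8.998 FPKM, and Eef1b2, an exchange factor of elongation, of 78.1 ± 16.3 and 62.0 ± 20.97 FPKM in the same groups.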

How the data were processed

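The authors deposited 1 table of FPKM per gene symbol for 6 libraries. Per the submitters' processing notes, TopHat, SAMtools, Cufflinks and FastQC were used with mm10 and GRCm38. Their versions, parameters and annotation are not given in the sources here. Depth is unknown, and the spread between mice gives the precision. Genes with at least 1 FPKM in at least 3 libraries (9767) were fitted with limma 3.58.1 in R 4.3.3 on log2(FPKM + 1), with an intensity trend, two-sided, and Benjamini-Hochberg adjustment over all genes at a threshold of 0.05. The pseudocount understates changes of low genes. For a single gene, 3 mice against 3 allow an exact permutation p no lower than 0.1. Copies were found with BLAST 2.17.0 in GENCODE mouse release 21 transcripts (GRCm38), and start windows came from RefSeq (GRCm38.p6). The fit was tested on simulated data. The ribosomal protein genes and the lists were chosen with earlier results of these data known. The text names Nmi, the 6 genes of each subunit with the smallest p, the 4 highest and 4 lowest in level, those listed at 0, those without overlap, the 3 most and 3 least variable, paralogs, the stalk and 5S partners, and the 2 genes with the smallest p per list. Others, such as Rpl38 and the genes with abundant copies, were chosen after their values were seen. Alternatives covered pseudocounts, filters, scalings, trend, library weights, a milk covariate and libraries left out. A few genes that this rule takes are not reported here by name and were left out of the plots that label genes.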

Additional observations from a re-analysis of the deposited data

How the results depend on the processing

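No ribosomal protein gene was called under any alternative run, and 149 summary values under the alternatives stayed within the replicate spread or 1.5 times of the reported ones, and 18 did not. This tally says little about stability, since many of the values are counts that were 0 throughout. The spread allowed for the medians (0.356 large, 0.371 small) is wider than the medians are far from 0, so a median could change sign within it. Genes called among all genes were 2 with library quality weights (chosen after the data were seen in the gene-by-gene form) and 1 without both wild-type replicate 1 and knockout replicate 3. Large subunit genes at an unadjusted p under 0.05 numbered 1 under trimmed-mean, quantile and outside-milk scaling alike, 5 with weights, 5 without both libraries and 6 with the milk share as a covariate. Small subunit genes numbered 1 with weights, 2 without both libraries, 2 with the covariate and 0 to 1 when each library was left out in turn, the 1 being without wild-type replicate 1. Among all genes, 168, 176 and 174 had such a p under the 3 scalings, 1142 with weights, 78 without both libraries, 103 with the covariate and 25 without wild-type replicate 1. With all 6 libraries kept, the median fold change was 0.129 (large) and 0.038 (small) with weights, and 0.218 and 0.062 with the covariate. Of the 73 genes, 16 with weights and 18 with the covariate lay below 0, beside 76.2% and 51.9% of all genes. Over the fits that left out 1 library or both, the median ranged from -0.334 to 0.286 (large) and -0.423 to 0.125 (small), and the difference in share of the whole sum, knockout minus wild type, from -0.4491 to 0.0838 percentage points (large -0.2497 to 0.0575, small -0.1994 to 0.0264), the upper ends being without both. There 25 of 73 ribosomal protein genes did not overlap, of which 24 were higher in the knockout, beside 15.2% of all genes. Over the same fits the log2 fold change ranged from -0.633 to 0.082 for Rpl23, -0.652 to 0.0182 for Rpl7, -0.563 to 0.0131 for Rpl22, -0.459 to 0.00595 for Rpl4, -0.52 to 0.0341 for Rps27a, -0.602 to 0.0356 for Rps3, -0.597 to 0.0469 for Rps4x and -0.626 to 0.125 for Rps20, above 0 only without both. Weights gave 0.0133 for Rpl22 and 0.0191 for Rps27a, and the covariate 7.15e-06 for Rps20. The cause was not tested. Fold changes of Rpl3 and Rps14 stayed below 0 in each fit. Nmi was called with weights alone, at -1.59. Genes without a coding copy at 99% or more had a median level of 86.4 FPKM. No paired analysis was possible because the mouse numbers in the labels are not shared between the genotypes.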
